A study of Mus musculus with 12 samples.

Results

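The 9 genes described here carry the enzymes, carriers, receptors and channels that serve the retinoid cycle of the eye and the pigment epithelium behind the retina: Rpe65, Lrat, Rdh5, Rdh10, Rgr, Rlbp1, Stra6, Ttr and Best1. They were chosen by symbol, through the Ensembl identifiers of the tables, with earlier results of these data known. They are 9 of 54532 listed genes, 34538 of them with at least 1 count. All 9 passed the filter on low counts and were among the 18299 genes tested.

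In the visual cycle, light turns the 11-cis-retinal of the photoreceptor opsins into the all-trans form, which is reduced to retinol and carried to the pigment epithelium, where it is esterified, isomerized and oxidized back to 11-cis-retinal. Vitamin A from the blood enters the same epithelium from its carrier proteins. Müller glia hold part of the same machinery, so Rlbp1, Rdh10 and Rgr are known from both cell types, while Rpe65 is used as a marker of the pigment epithelium.

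Retinal RNA was sequenced in 12 libraries, 3 in each of 4 groups of wild type C57BL/6 mice aged 13 weeks. SHAM was the control group, and MOG mice had been immunized with MOG35-55, a peptide of myelin oligodendrocyte glycoprotein, which brings on experimental autoimmune encephalomyelitis with optic neuritis. GB20 and GV16 mice had been immunized in the same way and were also needled, at the acupoint GB20 or at the nearby control acupoint GV16. Per the study's methods the mice were female, the peptide came with complete Freund's adjuvant and pertussis toxin, needling under xylazine and ketamine began 3 weeks after immunization, and all retinas were taken 5 weeks after it. Whether SHAM mice received the adjuvant and toxin, or SHAM and MOG mice the anesthetic, is not given in the sources used here, so effects of these agents and of the peptide or the needle cannot be told apart. The retinas of several mice may share a library, and p-values measure the spread between libraries.

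Depth ranged from 15860278 to 19194280 counted fragments. Levels are given as CPM (counts scaled to library size) or FPKM, as mean ± SD over n = 3 libraries. Markers of retinal ganglion cells, whose axons form the optic nerve, fell in 12 of 12 cases in MOG vs SHAM, with a median log2 fold change of -0.90 against -0.0023 over all tested genes. In bulk tissue, fewer cells of a type and less RNA per cell cannot be told apart. For the 9 genes, GV16 replicate 1 lay below its group mean in 8 of 9 and GV16 replicate 2 above it in 7 of 9, so the fold changes of Rpe65, Rgr, Ttr, Lrat, Rdh5, Stra6 and Rlbp1 in the GV16 comparisons printed for them are also given without each of these libraries.

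Levels were compared between genes on the FPKM scale, fragments scaled to gene length and library size. Rlbp1 came first in SHAM with 127 ± 8.51 FPKM, followed by Rdh10 with 10.7 ± 0.413 and Ttr with 6.52 ± 1.93. Rdh5 (1.59 ± 0.128 FPKM) and Rgr (1.46 ± 0.173 FPKM) came next, and their libraries overlapped. Stra6 stood at 0.930 ± 0.0617 FPKM, Rpe65 at 0.503 ± 0.230, Best1 at 0.303 ± 0.0938 and Lrat at 0.195 ± 0.0430. Among these last genes, the libraries of Rpe65 overlapped those of Best1, and the libraries of Best1 overlapped those of Lrat. Rlbp1 alone took 78.9% of all fragments counted on the 9 genes and Rdh10 11.4%, both of which Müller glia also express. Rpe65, Lrat and Best1 were read from few fragments, between 8 and 89 per library for Rpe65, 15 and 39 for Lrat, and 5 and 17 for Best1. Rdh5 had 55 to 107 fragments per library, Stra6 76 to 124 and Ttr 102 to 317. The label of the set was met by the presence of each gene in each library, but most of its signal came from genes that are not restricted to that epithelium.

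The stretches upstream of the start sites were examined because levels of several of these genes correlated across libraries, as described below. RefSeq promoters (GRCm38.p6, 250 bases before the annotated start) matched 7 of the 9 genes, with 10 promoters in all. TAATCC, the core recognized by OTX2 and CRX, was searched on both strands, as were the E-boxes CATGTG and CACGTG, the kind of site bound by MITF. The 4 promoters below belong to 3 genes that were higher in every MOG library than in any SHAM library and to Rlbp1, which was lower. They are written 5′ to 3′ on the strand of the gene, with matches in capitals; a match to the opposite strand appears as GGATTA or CACATG.
Rpe65, chr3:159598931-159599180, plus strand: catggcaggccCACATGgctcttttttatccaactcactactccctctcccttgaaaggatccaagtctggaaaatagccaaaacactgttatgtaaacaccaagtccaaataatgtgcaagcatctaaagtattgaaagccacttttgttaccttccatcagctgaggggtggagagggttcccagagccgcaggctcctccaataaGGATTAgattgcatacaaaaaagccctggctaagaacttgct
Rgr, chr14:37049015-37049264, minus strand: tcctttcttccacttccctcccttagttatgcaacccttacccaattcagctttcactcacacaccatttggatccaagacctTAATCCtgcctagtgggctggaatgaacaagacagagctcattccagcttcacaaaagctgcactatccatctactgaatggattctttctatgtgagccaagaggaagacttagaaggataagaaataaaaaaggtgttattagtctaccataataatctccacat
Lrat, chr3:82903975-82904224, minus strand: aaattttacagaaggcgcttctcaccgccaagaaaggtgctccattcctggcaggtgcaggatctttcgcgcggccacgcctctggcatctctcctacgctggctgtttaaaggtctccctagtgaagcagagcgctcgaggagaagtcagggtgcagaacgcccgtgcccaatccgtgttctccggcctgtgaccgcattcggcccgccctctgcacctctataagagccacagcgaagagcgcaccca
Rlbp1, chr7:79387028-79387277, minus strand: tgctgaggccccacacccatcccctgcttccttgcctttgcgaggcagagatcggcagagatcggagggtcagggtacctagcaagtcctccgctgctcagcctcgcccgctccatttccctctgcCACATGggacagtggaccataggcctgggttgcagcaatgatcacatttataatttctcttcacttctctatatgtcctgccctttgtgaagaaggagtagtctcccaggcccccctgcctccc

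In the Rpe65 promoter, the OTX2 and CRX core lay on the opposite strand at -42 to -37 from the start site, and an E-box lay at -239 to -234. Rgr held 1 core at -167 to -162, and Best1 held 1 at -227 to -222. Rlbp1 held an E-box at -124 to -119. None of these letters was found in Lrat, Rdh5 or the 4 promoters of Stra6. Of 32851 mouse promoters of the same length, 6.25% held the core and 17.6% held 1 of the E-boxes, 12.3% the form CATGTG and 6.02% the form CACGTG. Otx2 itself, a regulator of photoreceptor and pigment epithelium genes, stood at 237 ± 9.05 CPM in SHAM and 253 ± 7.32 in MOG (log2 fold change 0.095, SE 0.0663, edgeR adjusted p = 0.564).

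The first question was whether immunization changed these genes. In MOG vs SHAM, Rpe65, Lrat, Rgr, Ttr, Rdh10 and Stra6 were higher in every MOG library than in any SHAM library, and Rlbp1 was lower in every one. That is 6 of 9 genes higher and 1 of 9 lower, where 7.87% and 8.34% of all tested genes were separated in these directions. The fitted differences ran from 3.10-fold for Rpe65 to 1.12-fold for Rdh10, with a median log2 fold change of 0.32 over the 9 genes. None of the 9 passed an adjusted p of 0.05 in the fit of all 12 libraries (edgeR with Benjamini-Hochberg adjustment, lowest adjusted p = 0.0807), where 1.34% of all tested genes passed. The unadjusted edgeR p was under 0.05 for 6 of 9, against 2380 of 18299 genes.

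The count of 0 changed with the libraries and the tool used; in the 12-library fit, all groups share 1 estimate of the spread. Without GV16 replicate 1, 3 of the 9 genes passed in MOG vs SHAM, namely Rpe65, Rgr and Ttr (edgeR adjusted p = 0.0367, 0.0357 and 0.0488). Without GV16 replicate 2, Rpe65 passed (edgeR adjusted p = 0.0232). With the 6 SHAM and MOG libraries alone, Rpe65, Rgr and Ttr passed in both edgeR (adjusted p = 0.0487, 0.00565 and 0.0238) and DESeq2 (adjusted p = 0.0154, 2.13e-05 and 0.00265). Over all genes, 196 of 17591 passed in that edgeR fit and 240 of 16642 in that DESeq2 fit. DESeq2 on all 12 libraries called Rpe65 (adjusted p = 0.0123) and 316 of 17796 genes in all, and limma on log2(FPKM + 1) called none of the 9. With the replicate number as a block, edgeR called Rpe65 and Lrat (adjusted p = 0.00457 and 0.0475) and 404 of 18299 genes in all.

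**Figure D1:**
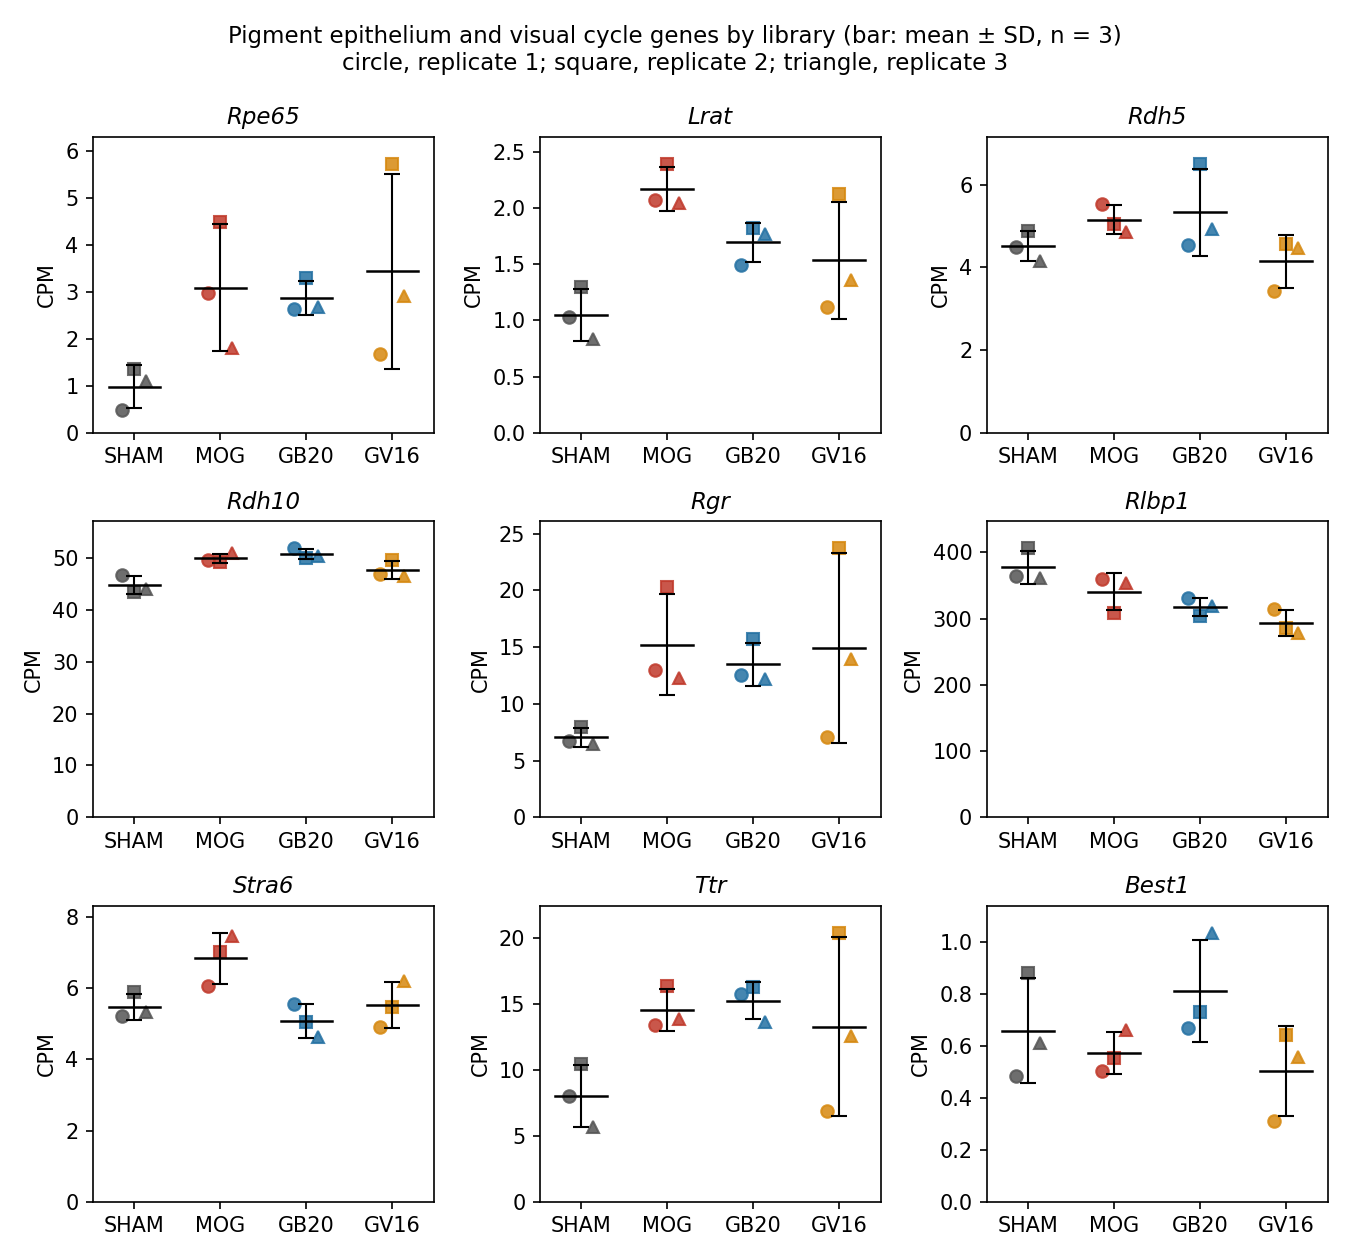
Level of each of the 9 genes in each of the 12 libraries, in CPM on axes that start at 0, with the group mean and SD (n = 3). Rpe65, Lrat, Rgr and Ttr lay higher in all MOG and GB20 libraries than in SHAM, GV16 replicate 1 (circle) stayed near SHAM for Rgr and Ttr, and the mean of Rlbp1 was 377 CPM in SHAM and 293 CPM in GV16.

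Rpe65 (ENSMUSG00000028174, chr3:159599175-159625321, plus strand of GRCm38) encodes the isomerohydrolase that makes 11-cis-retinol from retinyl esters. It stood at 0.484, 1.35 and 1.11 CPM in SHAM replicates 1 to 3 and at 2.97, 4.49 and 1.8 CPM in MOG replicates 1 to 3. The values were 2.63, 3.28 and 2.68 CPM in GB20 and 1.68, 5.72 and 2.91 CPM in GV16. All 9 libraries of the immunized groups lay above all SHAM libraries, and replicate 2 was the highest library in every group. The log2 fold change to SHAM was 1.63 in MOG (SE 0.474, 95% interval 0.61 to 2.65, edgeR adjusted p = 0.145). In GB20 vs SHAM it was 1.53 (SE 0.477, 0.50 to 2.55, edgeR adjusted p = 0.276), and in GV16 vs SHAM 1.79 (SE 0.471, 0.77 to 2.80, edgeR adjusted p = 0.129). These 3 comparisons share the SHAM libraries, of which replicate 1 held 8 fragments of the gene. Rpe65 had the widest range of the 9 genes, with an 11.8-fold ratio between its highest and lowest library.

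Lrat (ENSMUSG00000028003, chr3:82892579-82903973, minus strand) encodes the lecithin retinol acyltransferase that makes the retinyl esters on which Rpe65 acts. Its levels were 1.03, 1.29 and 0.832 CPM in SHAM and 2.07, 2.40 and 2.04 CPM in MOG. In the needled groups they were 1.49, 1.82 and 1.77 CPM in GB20 and 1.12, 2.12 and 1.36 CPM in GV16. MOG was thus clear of SHAM by a wide gap, GB20 lay between both groups without touching either, and GV16 overlapped both. In MOG vs SHAM the log2 fold change was 1.04 (SE 0.287, 95% interval 0.45 to 1.64, edgeR adjusted p = 0.0807). Against MOG, it was -0.36 in GB20 (SE 0.269, -0.92 to 0.20, edgeR adjusted p = 0.761) and -0.50 in GV16 (SE 0.275, -1.07 to 0.070, edgeR adjusted p = 0.989). The GV16 value was -0.32 without GV16 replicate 1 and -0.80 without GV16 replicate 2.

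Rdh5 (ENSMUSG00000025350, chr10:128913593-128922888, minus strand) encodes the dehydrogenase that oxidizes 11-cis-retinol in the pigment epithelium. Its exons overlap those of Bloc1s1 on the same strand over 25.6% of their length, so its counts are uncertain. SHAM held 4.48, 4.88 and 4.16 CPM, MOG 5.54, 5.04 and 4.86, GB20 4.53, 6.51 and 4.93, and GV16 3.41, 4.56 and 4.46. MOG overlapped SHAM by a narrow margin, and GV16 lay below MOG in every library. On the log2 scale the fold change was 0.19 in MOG vs SHAM (SE 0.175, 95% interval -0.17 to 0.55, edgeR adjusted p = 0.668) and -0.31 in GV16 vs MOG (SE 0.178, -0.68 to 0.055, edgeR adjusted p = 0.992). The latter was -0.19 without GV16 replicate 1 and -0.39 without GV16 replicate 2.

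Rdh10 (ENSMUSG00000025921, chr1:16105774-16133734, plus strand) encodes a retinol dehydrogenase of pigment epithelium and Müller glia that also feeds retinoic acid synthesis. It varied least of all, from 43.5 to 51.9 CPM over the 12 libraries. SHAM held 46.7, 43.5 and 44.0 CPM, MOG 49.6, 49.3 and 51.0, GB20 51.9, 50.1 and 50.4, and GV16 46.9, 49.6 and 46.6. MOG and GB20 were above SHAM in all libraries by a small margin, and GV16 overlapped SHAM. With many more fragments behind it than Rpe65, its log2 fold changes were small and narrow: 0.16 in MOG (SE 0.0707, 95% interval 0.012 to 0.31, edgeR adjusted p = 0.336) and 0.18 in GB20 (SE 0.0706, 0.038 to 0.33, edgeR adjusted p = 0.395), both against SHAM.

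Rgr (ENSMUSG00000021804, chr14:37034909-37048964, minus strand) encodes an opsin of pigment epithelium and Müller glia that binds all-trans-retinal and returns it to the 11-cis form in light. Its levels were 6.72, 8.0 and 6.44 CPM in SHAM, and 13.0, 20.3 and 12.3 CPM in MOG. GB20 held 12.6, 15.7 and 12.2 CPM, and GV16 7.08, 23.7 and 14.0 CPM. GV16 therefore had both a library inside the SHAM range and the highest library of all. The log2 fold change to SHAM was 1.11 in MOG (SE 0.403, 95% interval 0.19 to 2.03, edgeR adjusted p = 0.290), 0.93 in GB20 (SE 0.406, 0.0093 to 1.86, edgeR adjusted p = 0.548) and 1.08 in GV16 (SE 0.405, 0.16 to 2.0, edgeR adjusted p = 0.372). Without GV16 replicate 1, the value in GV16 vs SHAM was 1.42 (SE 0.251, edgeR adjusted p = 0.0161), and without GV16 replicate 2 it was 0.58 (SE 0.288, edgeR adjusted p = 0.649).

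Rlbp1 (ENSMUSG00000039194, chr7:79374870-79387048, minus strand) encodes the carrier of 11-cis-retinoids in pigment epithelium and Müller glia. It was measured at 365, 406 and 361 CPM in SHAM and at 359.8, 309 and 354 CPM in MOG. GB20 held 331, 303 and 319 CPM, and GV16 315, 286 and 279 CPM. Every library of the 3 immunized groups was below every SHAM library, though MOG replicate 1 only just so. The log2 fold change was -0.15 in MOG vs SHAM (SE 0.0779, 95% interval -0.31 to 0.015, edgeR adjusted p = 0.433) and -0.25 in GB20 vs SHAM (SE 0.0779, -0.41 to -0.086, edgeR adjusted p = 0.224). In GV16 vs SHAM, Rlbp1 fell by 22.3%, with a log2 fold change of -0.36 (SE 0.0781, -0.53 to -0.20, edgeR adjusted p = 0.0261). It was the only 1 of the 9 genes to pass in this fit in any comparison, and 0.432% of all tested genes fell in GV16 vs SHAM.

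The call of Rlbp1 was not independent of single libraries. It was lost without SHAM replicate 1 (edgeR adjusted p = 0.0848), SHAM replicate 2 (0.0788), MOG replicate 3 (0.05, at the threshold), GV16 replicate 2 (0.173) or GV16 replicate 3 (0.248), while the log2 fold change stayed between -0.42 and -0.31. Without GV16 replicate 1 it was -0.42 (edgeR adjusted p = 0.0158), and without GV16 replicate 2 it was -0.35. It was also lost with the 6 libraries of both groups in edgeR (adjusted p = 0.101) and kept in DESeq2 on the same libraries (adjusted p = 0.00578). Of 14 Müller cell genes, 0 were called in GV16 vs SHAM by edgeR, with a median log2 fold change of -0.0153 (2 had an unadjusted p under 0.05, and DESeq2 on 12 libraries called 0). Their summed level spanned 4936 to 5310 CPM in SHAM and 5118 to 5303 CPM in GV16. A few abundant genes carried most of this sum, above all Glul (2081 ± 81.7 CPM in SHAM and 2074 ± 53.9 in GV16).

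**Figure D2:**
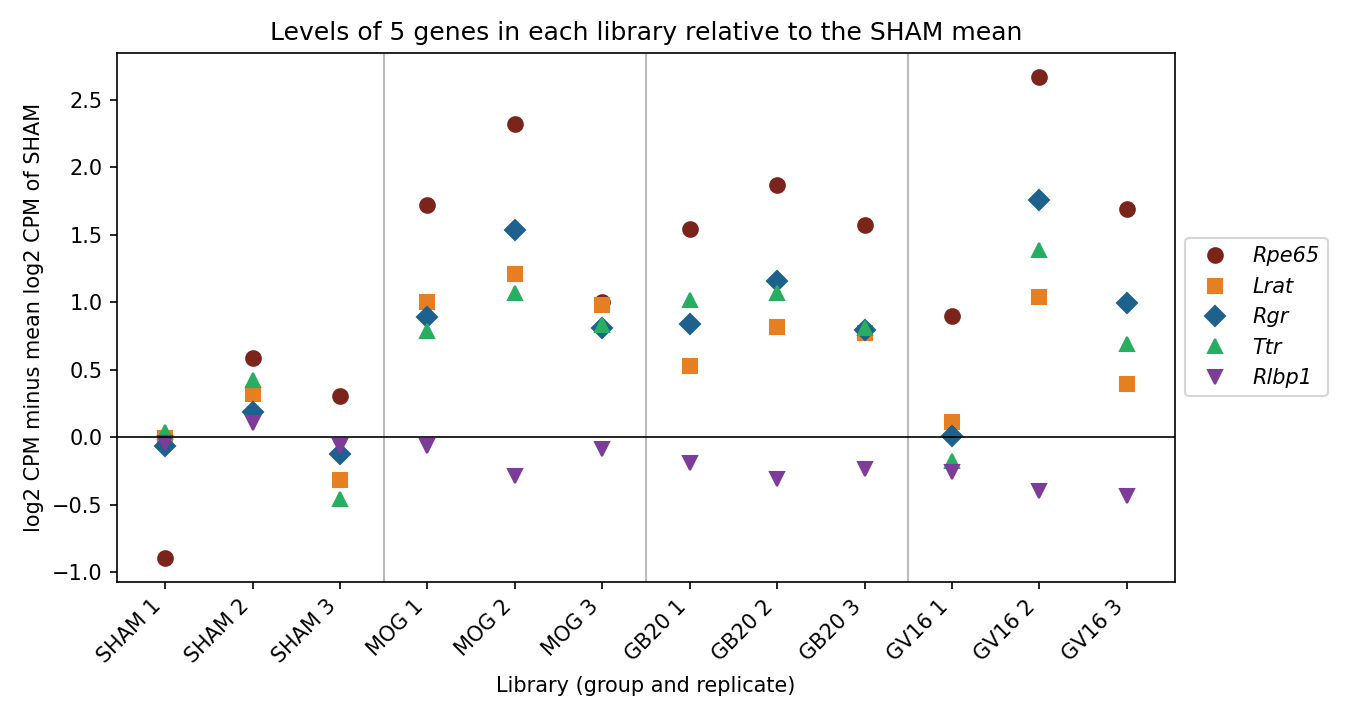
Log2 CPM of Rpe65, Lrat, Rgr, Ttr and Rlbp1 in each library, minus the SHAM mean of the same gene, with libraries in order of group. In GV16 the first 4 genes are all low in replicate 1 and high in replicate 2, in SHAM replicate 3 they differ in direction, and Rlbp1 stays below 0 in all 9 immunized libraries.

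Stra6 (ENSMUSG00000032327, chr9:58063788-58153996, plus strand) encodes the receptor that takes up retinol from its plasma binding protein. Its levels were 5.21, 5.88 and 5.33 CPM for SHAM and 6.04, 7.0 and 7.45 CPM for MOG. GB20 held 5.56, 5.05 and 4.63 CPM, and GV16 4.91, 5.46 and 6.19 CPM. All MOG libraries were above all SHAM libraries and above all GB20 libraries, and GV16 overlapped SHAM and MOG. Its log2 fold change was 0.32 in MOG vs SHAM (SE 0.151, 95% interval 0.0054 to 0.63, edgeR adjusted p = 0.374). It was -0.42 in GB20 vs MOG (SE 0.152, -0.74 to -0.11, edgeR adjusted p = 0.475) and -0.31 in GV16 vs MOG (SE 0.152, -0.62 to 0.0099, edgeR adjusted p = 0.957), the latter at -0.23 without GV16 replicate 1 and -0.30 without GV16 replicate 2. Its order across groups thus differed from that of Rpe65, Rgr and Ttr, whose GB20 libraries lay with MOG rather than with SHAM. That difference between genes was not tested.

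Ttr (ENSMUSG00000061808, chr18:20665280-20674321, plus strand) encodes transthyretin, which carries thyroxine and the retinol-binding protein and is made by the pigment epithelium and, in the brain, by the choroid plexus. It was measured at 7.99, 10.4 and 5.66 CPM in SHAM and 13.4, 16.3 and 13.9 CPM in MOG. GB20 held 15.8, 16.3 and 13.6 CPM, and GV16 6.89, 20.4 and 12.6 CPM. As for Rgr, MOG and GB20 were clear of SHAM, and GV16 had its lowest library within the SHAM range and its highest above all others. The log2 fold change to SHAM was 0.86 in MOG (SE 0.349, 95% interval 0.073 to 1.65, edgeR adjusted p = 0.337), 0.93 in GB20 (SE 0.347, 0.15 to 1.71, edgeR adjusted p = 0.457) and 0.73 in GV16 (SE 0.353, -0.069 to 1.52, edgeR adjusted p = 0.505). Without GV16 replicate 1, the GV16 value was 1.04 (SE 0.220, edgeR adjusted p = 0.0350), and without GV16 replicate 2 it was 0.28 (SE 0.248, edgeR adjusted p = 0.785).

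Best1 (ENSMUSG00000037418, chr19:9985174-10001633, minus strand) encodes bestrophin, a chloride channel of the basal membrane of the pigment epithelium. It was read from only 5 to 17 fragments per library. SHAM held 0.484, 0.882 and 0.610 CPM and MOG 0.504, 0.553 and 0.660 CPM. GB20 held 0.670, 0.730 and 1.04 CPM, and GV16 0.310, 0.643 and 0.557 CPM. GB20 was above MOG and above GV16 in all libraries, and overlapped SHAM. In MOG vs SHAM its log2 fold change was -0.20 (SE 0.414, 95% interval -1.06 to 0.65, edgeR adjusted p = 0.873), an interval wide enough to include the fold of Stra6. The fitted 1.63 of Rpe65 lay outside that interval, while 0.61, the lower end of the interval of Rpe65, lay inside it.

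The second question was whether needling moved these genes away from their level in MOG. In GB20 vs MOG, 0 of 9 genes passed (0.24% of all genes did), and DESeq2 and limma also called 0. The unadjusted edgeR p was under 0.05 for 1 of 9, against 1464 of 18299 genes. Best1 was higher in all GB20 libraries, and Stra6 and Lrat were lower in all of them, where 7.96% and 7.71% of all genes were separated in these directions. In GV16 vs MOG, edgeR, DESeq2 and limma again called 0 of 9 (0.164% of all genes passed). Here 1 of 9 had an unadjusted edgeR p under 0.05, against 969 of 18299 genes. This was Rlbp1 (log2 fold change -0.22, SE 0.0781, edgeR adjusted p = 0.723), at -0.27 without GV16 replicate 1 and -0.20 without GV16 replicate 2. Rdh5 alone was lower in all GV16 libraries, against 6.45% of all genes. Between the needled groups, GB20 vs GV16, the same tools called 0 of 9 (0.00546% of all genes passed), and 0 had an unadjusted p under 0.05, against 536 of 18299 genes. Best1 and Rdh10 were higher in all GB20 libraries, against 4.03% of all genes.

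The intervals set what these zeros can mean. For Rpe65 the log2 fold change was -0.11 in GB20 vs MOG (SE 0.408, 95% interval -0.98 to 0.77) and 0.15 in GV16 vs MOG (SE 0.404, -0.71 to 1.02), the latter at 0.48 without GV16 replicate 1 and -0.42 without GV16 replicate 2. The fitted 1.63 of Rpe65 in MOG vs SHAM, with the sign turned, lay outside both intervals. That value had its own interval of 0.61 to 2.65, and its lower end with the sign turned lay inside both. A return of Rpe65 to the SHAM level was therefore not excluded. For Rgr the values were -0.17 (SE 0.379, -1.04 to 0.69) and -0.0271 (SE 0.378, -0.89 to 0.83), and for Ttr 0.068 (SE 0.329, -0.67 to 0.81) and -0.13 (SE 0.335, -0.89 to 0.62). With the sign turned, the MOG vs SHAM value of Rgr (1.11) lay outside both of its intervals. Those of Ttr (0.86) and Lrat (1.04) lay outside their GB20 vs MOG intervals but inside their GV16 vs MOG intervals. That of Stra6 (0.32) lay inside both. Without GV16 replicate 1 the GV16 values were 0.31 for Rgr and 0.18 for Ttr, and without GV16 replicate 2 they were -0.53 and -0.58. The MOG libraries enter both these comparisons and those with SHAM, so the values are not independent of each other.

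Against SHAM, GB20 had 5 of 9 genes higher in every library (Rpe65, Rgr, Ttr, Lrat and Rdh10) and Rlbp1 lower in every one, where 5.66% and 7.09% of all genes were separated. The edgeR fit called 0 of the 9 (0.344% of all genes passed), and 6 had an unadjusted p under 0.05, against 1657 of 18299 genes. DESeq2 on the 6 libraries called 3, Rpe65, Rgr and Ttr (adjusted p = 0.0217, 0.000165 and 0.000915), and 124 of 14714 genes in all. In GV16 vs SHAM, 1 of 9 was higher in every library, Rpe65, and 1 lower, Rlbp1, where 6.86% and 7.6% of all genes were separated and 0.656% passed. Without GV16 replicate 1, 4 of 9 passed, as Rpe65 (log2 fold change 2.12, SE 0.397, edgeR adjusted p = 0.0108), Rgr and Ttr joined Rlbp1. Without GV16 replicate 2, 0 of 9 passed, and Rpe65 stood at 1.21 (SE 0.405, edgeR adjusted p = 0.371).

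**Figure D3:**
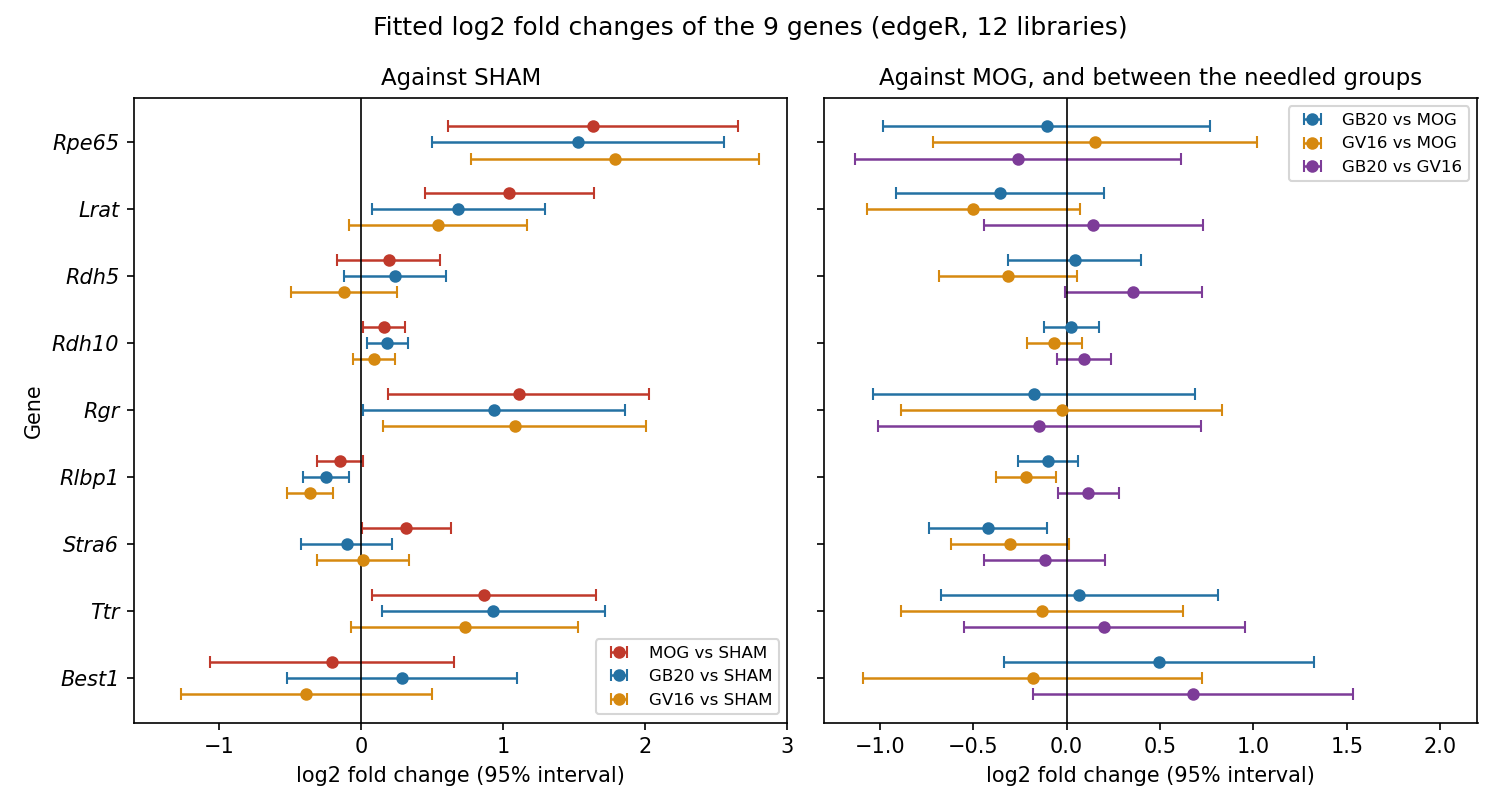
Fitted log2 fold changes of the 9 genes with 95% intervals, from edgeR on 12 libraries, against SHAM on the left and against MOG or between needled groups on the right. Rpe65 has the largest values against SHAM (1.53 to 1.79), the intervals of Rlbp1 and Rdh10 are the narrowest, and on the right the intervals of Stra6 in GB20 vs MOG and of Rlbp1 in GV16 vs MOG are the ones that leave out 0.

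Deviations from the group means were compared between genes. Over the 12 libraries, with group means removed, the log2 levels of Ttr correlated with those of Rgr at 0.905 and with those of Lrat at 0.916 (Pearson's r, a description of 12 libraries that share their scaling). Rgr correlated with Rpe65 at 0.809, Ttr with Rpe65 at 0.647 and Lrat with Rpe65 at 0.675. Best1 correlated with Rpe65, Rgr and Ttr at 0.595, 0.598 and 0.648, and Rdh5 at 0.505, 0.652 and 0.642. The deviations did not run together in every library: in SHAM replicate 3, Rpe65 was at 0.30 while Lrat was at -0.31 and Ttr at -0.46 on the log2 scale. Rlbp1 had negative values, at -0.336 with Rpe65, -0.564 with Rgr and -0.238 with Ttr. With the same genes in this order, Stra6 was at 0.211, 0.368 and 0.464, and Rdh10 at -0.221, 0.233 and 0.358. In GV16 replicate 1 the deviations were -0.86 for Rpe65, -0.91 for Rgr, -0.81 for Ttr and -0.40 for Lrat on the log2 scale, and in GV16 replicate 2 they were 0.92, 0.84, 0.75 and 0.52. For Rgr, Ttr and Lrat these were the largest deviations of all libraries, and for Rpe65 SHAM replicate 1 was also far off (-0.89). The GV16 libraries thus weigh heavily in the correlations above, which were not computed without them. How much pigment epithelium stayed with each dissected retina is not given in the sources used here, and its part in these values was not tested.

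Other genes of the same processes were read beside the 9. Of 18 further visual cycle genes tested, 0 were called in MOG vs SHAM by edgeR, with a median log2 fold change of -0.066. Rbp3, the retinoid carrier between photoreceptors and epithelium, stood at 4267 ± 465 CPM in SHAM and 4398 ± 432 in MOG. In GV16 vs SHAM 1 of the 18 rose, the cone pigment gene Opn1mw (log2 fold change 0.35, SE 0.0808, edgeR adjusted p = 0.0404). Of 13 genes of retinoic acid synthesis and response, 0 were called in MOG vs SHAM, with a median of -0.0020. An unadjusted edgeR p under 0.05 was found for 0 of these 18 and 2 of these 13 genes in that comparison, and DESeq2 on 12 libraries also called 0 in both lists. The receptor genes Rxrb and Rxra stood at 70.9 ± 6.96 and 65.5 ± 2.68 CPM in SHAM and at 63.6 ± 4.51 and 63.9 ± 5.66 CPM in MOG.

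Among 16 other genes known from the pigment epithelium, 14 had a positive log2 fold change in MOG vs SHAM, with a median of 0.16, and 1 rose by the test. This was Cdh3, which encodes P-cadherin, at 0.424 ± 0.106 CPM in SHAM and 1.34 ± 0.142 in MOG (log2 fold change 1.64, SE 0.386, edgeR adjusted p = 0.0313). DESeq2 on 12 libraries did not call it (adjusted p = 0.0666) and called 0 genes of this list in MOG vs SHAM. In the needled groups Cdh3 stood at 0.523 ± 0.101 CPM (GB20) and 0.709 ± 0.300 CPM (GV16). The summed level of the list was 512.5 to 567 CPM in SHAM, 601 to 607 in MOG, 597 to 637 in GB20 and 609 to 628 in GV16, most of it from Otx2 and Trpm3, which retinal neurons or glia also express. Chosen after their values were seen, the transporter gene Slc6a20a and the collagen gene Col8a2 were, like Ttr, higher in every MOG library than in any SHAM library and lowest within GV16 in replicate 1. Slc6a20a held 0.605, 0.588 and 0.610 CPM in SHAM and 1.40, 1.35 and 1.26 CPM in MOG, and GV16 replicate 1 stood at 0.497 CPM beside 1.35 and 1.73 CPM in the other GV16 libraries (MOG vs SHAM edgeR adjusted p = 0.191). Col8a2 held 0.787, 1.06 and 0.777 CPM in SHAM, 1.34, 1.54 and 1.5 in MOG, and 1.18, 3.92 and 1.8 in GV16 (MOG vs SHAM edgeR adjusted p = 0.412). The epithelial channel gene Kcnj13, singled out in the same way, stood at 0.545 ± 0.187 CPM in SHAM and 0.416 ± 0.166 in MOG, and at 0.186, 0.836 and 0.743 CPM in GV16. Its exons overlap those of Gigyf2 on the other strand over 49.1% of their length, so its counts are uncertain. Other genes of the list did not share the pattern of Slc6a20a and Col8a2. SHAM and MOG libraries overlapped for Mitf, Slc16a8 (3.51 ± 0.155 and 3.59 ± 0.538 CPM), Ermn (1.11 ± 0.285 and 1.18 ± 0.636) and Serpinf1 (4.52 ± 0.172 and 4.18 ± 0.568). Within GV16, Trpm3 and Efemp1 were highest in replicate 1.

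Pigment granule genes, which mark pigmented cells of epithelium and choroid, gave 1 call in 9 tested genes in MOG vs SHAM. Gpnmb, which microglia and macrophages also express, rose from 3.08 ± 0.390 to 10.8 ± 1.45 CPM (log2 fold change 1.8, SE 0.171, edgeR adjusted p = 1.57e-06). In GB20 it stood at 3.23 ± 0.402 CPM and fell against MOG (log2 fold change -1.73, SE 0.170, edgeR adjusted p = 5.49e-06). All 9 tested granule genes had a positive log2 fold change in MOG vs SHAM (median 0.27) and in GV16 vs SHAM, and 8 of 9 in GB20 vs SHAM. Pigment synthesis genes were low, and those named here lie outside the naming rule given below. Tyr stood at 0.526 ± 0.0740 CPM in SHAM and 0.637 ± 0.251 in MOG, and Dct at 2.60 ± 0.624 and 2.68 ± 0.661. Oca2 stood at 0.176 ± 0.0623 and 0.675 ± 0.179 CPM (log2 fold change 1.90, SE 0.543, edgeR adjusted p = 0.0953). The summed level of the 12 granule genes was 27 to 28.4 CPM in SHAM, 35.7 to 39.6 in MOG, 30.5 to 31.6 in GB20 and 32.8 to 41.9 in GV16, lowest in GV16 for replicate 1 and highest for replicate 2. Most of the difference between SHAM and MOG in this sum came from Gpnmb. Without it, the other 11 genes summed to 23.6 to 25.1 CPM in SHAM, 26.5 to 27.8 in MOG, 26.9 to 28.7 in GB20 and 25.9 to 32.7 in GV16. Its part in the values of Rpe65 and Ttr was not tested.

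Lists for tissues next to the retina and for the main retinal cell types were read in the same way. Of 14 genes of choroid plexus and ciliary epithelium, in which Ttr is also known, 0 were called in MOG vs SHAM by edgeR, and the sum was 331 to 359 CPM in SHAM and 314 to 344 in MOG. In GV16 vs SHAM 1 of them rose, Enpp2 (log2 fold change 0.40, SE 0.0879, edgeR adjusted p = 0.0304). Choroid stroma (7 genes tested), endothelium (12) and erythrocytes (3) gave 0 calls in MOG vs SHAM. Of the 12 listed stroma genes only 1, Lum, was at 0 in all libraries. The highest of that list, Col6a1 and Pdgfra, stood at 45.05 ± 8.10 and 11.1 ± 1.34 CPM in SHAM. In MOG they stood at 47.3 ± 10.5 and 12.8 ± 0.901 CPM. Sums of the choroid stroma list ran from 59.7 to 81.0 CPM in SHAM and 67.4 to 88.4 in MOG, those of erythrocyte genes from 9.04 to 12.4 and 8.53 to 10.8. Rod genes (15) and cone genes (10) gave 0 calls in MOG vs SHAM, while Müller cell genes gave 2 of 14, Crym (log2 fold change 0.60, SE 0.0806, edgeR adjusted p = 0.000186) and the water channel gene Aqp4 (0.46, SE 0.0707, edgeR adjusted p = 0.000812). The list held 7 genes with positive and 7 with negative values, and DESeq2 on 12 libraries called Crym, Aqp4 and also Glul, the glutamine synthetase gene, which was lower in MOG (DESeq2 log2 fold change -0.25, adjusted p = 0.0144). Of 11 lens genes, 3 were tested and 0 called. An unadjusted edgeR p under 0.05 in MOG vs SHAM was found for 4 of the 10 cone genes, 2 of the 15 rod genes, 1 of the 14 choroid plexus and ciliary genes, 1 of the 7 choroid stroma genes and 0 of the endothelial, erythrocyte and lens genes, and DESeq2 on 12 libraries also called 0 in each of these lists.

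**Figure D4:**
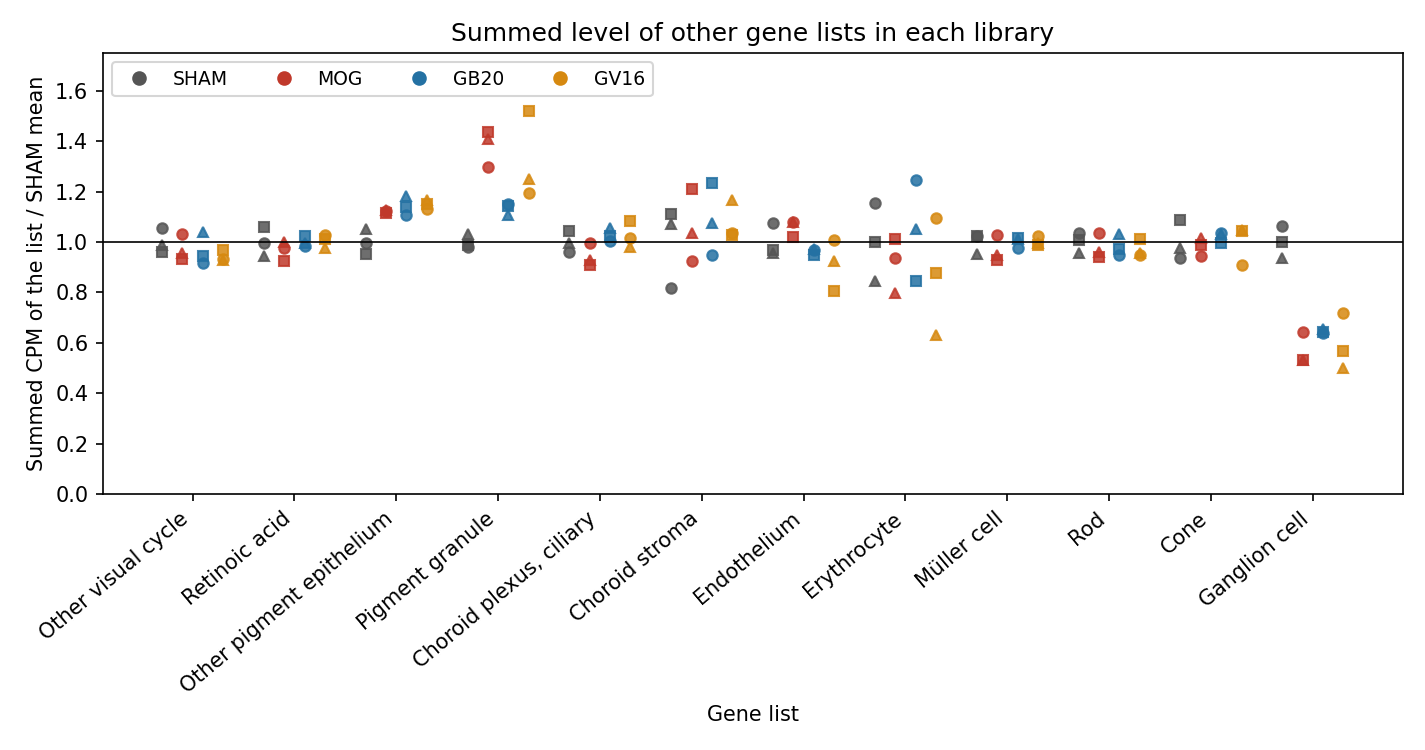
Summed CPM of 12 other gene lists in each library, divided by the SHAM mean of the list, on an axis that starts at 0 (circle, square and triangle for replicates 1 to 3). The pigment granule list reaches 1.52 in GV16 replicate 2, the other pigment epithelium list lies between 1.11 and 1.18 in all immunized libraries, the ganglion cell list lies below 1 in all of them, and rods, cones and Müller cells stay near 1.

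Genes whose log2 levels followed Rpe65 most closely over the 12 libraries were drawn from 16051 genes with a mean of at least 1 CPM, leaving out the 9 genes themselves. The closest 6 others were E230001N04Rik (r = 0.918), Itgb1bp2 (0.909), Zranb1 (0.893), Ppp2r5a (0.893), Cnot7 (0.886) and 9230116N13Rik (0.869), of which E230001N04Rik overlaps Gm20109 over 12.4% of its exons. For Ttr they were Dera (0.916), Gm29675 (0.904), Cpxm2 (0.882), Rsrc2 (0.875), the pseudogene Gm10548 (0.856) and Slc19a2 (0.856). Rpe65 correlated with Rgr at 0.906 and Ttr with Rgr at 0.930 over the same libraries, with the differences between groups included. Both values used log2 CPM, while the search used log2(CPM + 0.1), so they cannot be ranked against those above. None of the 12 genes named belongs to the lists above, and their edgeR adjusted p in MOG vs SHAM lay between 0.233 and 0.815.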

How the data were processed

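Retinal RNA of 12 libraries was analysed, 3 per group by the sample labels. The authors selected polyadenylated RNA, aligned reads with HISAT2 2.0.5 to mm10 (per the submitters' processing notes) and counted fragments per gene with FeatureCounts. The deposited counts are whole numbers and were not normalized. A second table deposited by the authors holds FPKM, computed from the counts and the gene length. The sources used here do not give the annotation release or strand setting. Coordinates are those of GENCODE vM21 on GRCm38, which holds 54409 of 54532 identifiers.

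Counts were tested with edgeR 4.0.16 in R 4.3.3: expression filter with a minimum count of 10, TMM scaling, a group-means design and robust quasi-likelihood fitting of all 12 libraries (8 residual degrees of freedom), 2-sided, with Benjamini-Hochberg adjustment over 18299 genes and a threshold of 0.05. CPM used the TMM library sizes. Tested on simulated data for MOG vs SHAM with 200 genes changed by a log2 value of 1, the fit recovered 147 (73.5%) with 8 false calls among 18040 genes. The 200 genes were drawn at random from all tested genes. The share is thus an average and does not give the recovery for genes as sparse or variable as Rpe65, Lrat, Rgr and Ttr. DESeq2 1.42.0, limma 3.58.1 on log2(FPKM + 1), other scalings, no filter, a replicate block and leaving out each library were the alternatives.

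The 9 genes and the gene lists were chosen with earlier results of these data known. Named beside the 9 genes were up to 4 called genes per list (MOG vs SHAM), otherwise the 2 with the highest CPM, and the 6 genes most like Rpe65 and Ttr; others are said to be chosen later. The same SHAM libraries enter 3 comparisons and the same MOG libraries 3.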

Additional observations from a re-analysis of the deposited data

How the results depend on the processing

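The count of the 9 genes called depended on the fit. In MOG vs SHAM (0 in the 12-library edgeR fit) it was 1 without the filter, 1 with DESeq2 on 12 libraries, 3 with DESeq2 and 3 with edgeR on the 6 libraries, and 0 to 3 when single libraries were left out. In GB20 vs SHAM (0) the same settings gave 1, 1, 3 and 2, and 0 to 0 without single libraries. In GV16 vs SHAM (1) they gave 2, 2, 2 and 0, the 3 limma fits 0 each, and leaving out single libraries 0 to 4. Over all genes in MOG vs SHAM, the fit without the filter called 539 of 34538 and DESeq2 on 12 libraries 316 of 17796. On the 6 libraries, DESeq2 called 240 of 16642 and edgeR 196 of 17591. In GB20 vs SHAM the same order gave 282 of 34538, 152 of 16456, 124 of 14714 and 66 of 17550. For GV16 vs SHAM it was 395 of 34538, 202 of 17126, 125 of 17123 and 66 of 17474. The causes were not tested. The 2 other edgeR scalings changed no count, and in the comparisons among MOG, GB20 and GV16 every setting run gave 0.

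With the replicate number as a block, 2 genes were called in MOG vs SHAM (Rpe65 and Lrat, edgeR adjusted p = 0.00457 and 0.0475), 1 in GB20 vs SHAM (Rpe65, 0.0142) and 2 in GV16 vs SHAM (Rpe65, 0.00389, and Rlbp1, 0.00718). Same-numbered libraries correlated between -0.0966 and 0.286 in their deviations, above 0.1 in 3 of 18 pairs. The study's methods say that the experiments were repeated 3 times, but not whether the numbers in the labels mark these repeats. The main fit therefore left the numbers out, and whether they mark a batch was not settled. As a hint from the data only, 6 of 6 libraries correlated best with their own number in GB20 vs SHAM and in GV16 vs SHAM, 4 of 6 in GV16 vs MOG, and 0 to 2 of 6 in the other comparisons.

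Of 1175 log2 fold changes under alternatives, 1117 kept direction and side of the threshold, 29 newly passed and 9 no longer passed. The other 20 changed sign, all for values not past the threshold in the 12-library fit, and 19 of them when a single library was left out. The lowest and highest values without single libraries were -0.38 and 0.063 for Best1 in MOG vs SHAM. In GB20 vs MOG they were -0.38 and 0.25 for Rpe65, -0.12 and 0.15 for Rdh5, and -0.30 and 0.088 for Rgr. In GV16 vs MOG they were -0.42 and 0.51 for Rpe65, -0.53 and 0.31 for Rgr, -0.39 and 0.069 for Best1, and -0.58 and 0.18 for Ttr. In GB20 vs GV16 they were -0.59 and 0.32 for Rpe65, -0.040 and 0.45 for Lrat, -0.48 and 0.35 for Rgr, and -0.11 and 0.65 for Ttr, and Rgr was at 0.0035 with limma on log2(FPKM + 0.1). In GV16 vs SHAM they were -0.20 and 0.00085 for Rdh5, and -0.076 and 0.091 for Stra6. DESeq2 gave no adjusted p for 12 values of the 9 genes, which were not counted as lost. Depth limits Best1, Rpe65 and Lrat most.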
